A study of Danio rerio with 4 samples.

Results

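The ovary of zebrafish that had received dibutyl phthalate (DBP) and diisobutyl phthalate (DiBP) together was compared with the ovary of the control. The comparison takes 2 of the series' 4 libraries, the combined library and the control library, and every Ensembl gene whose mean over all 4 libraries reached 1 FPKM. FPKM counts sequenced fragments relative to transcript length and to the size of the library. The animals were wild-type adult females of the AB strain, aged 5 months. The exposed groups received DBP alone, DiBP alone or both for 30 days, and the control is labelled only as control. The sources used here give neither doses nor the number of ovaries behind a library. Each group has 1 library, so no difference below has a replicate error or a test, and each compares libraries rather than conditions.

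Of 35066 Ensembl rows, 12603 passed the filter. Rows with the same 4 values were joined, which left 11774 loci, of which 8090 carry a gene symbol that no other row has. Just outside the filter lay the microRNA gene dre-mir-375-2 with a mean of 0.999937 FPKM, and just inside it lay RAB26 with a mean of 1.00012. A locus near 0 in the control passed only where another library held it, so at least 1 exposed library had to lie above the control. Likewise, a locus near 0 in the combined library passed only where another library held it. Symbols are printed as the annotation gives them, many in the capitals of the human gene. Differences are on the log2(FPKM + 1) scale, combined minus control, and understate the change of low genes.

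DBP and DiBP are plasticisers that differ in the branching of their alcohol chains. In rodents both are known to lower testosterone in the fetal testis, and their monoesters activate the lipid receptors of the PPAR family. The zebrafish ovary holds follicles of all stages at once, each an oocyte in a layer of granulosa cells, which convert androgens to oestrogens, and theca cells, which supply them. The oocyte stores transcripts for the egg coat and for the embryo, and takes up vitellogenin, the yolk protein made by the liver. In bulk tissue, fewer cells of a type and less RNA per cell cannot be told apart. The label of the tissue was met by the markers: all 15 egg-coat loci that had any value were measured, zp3e was at 1581 FPKM in the control and 1202 in the combined library, and ZAR1, an oocyte RNA-binding protein, was at 552 and 441.

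The combined library lay close to the control at most loci. The log2 difference had a median of -0.09 and an SD over loci of 0.53, and its 5th and 95th percentiles were -0.78 and 0.66. At least 2-fold higher values were found at 292 loci, or 2.48% of those measured, and at least 2-fold lower values at 308, or 2.62%, which makes 5.1% either way. At 1.5-fold or more, 708 loci were higher (6.01%) and 1051 lower (8.93%), or 14.9% either way. That direction turned with the scaling: 815 were higher and 924 lower with equal totals, and 893 and 830 with totals that leave out the 50 most abundant rows. Any difference below the control, however small, was found at 61.8% of loci. Counts within the gene lists below are to be read beside these shares. The lists were written with earlier results of these data known. The SD was 0.56 for DBP and 0.69 for DiBP against the same control, with 425 and 628 loci at least 2-fold higher and 290 and 734 lower. Large differences were concentrated at low levels. They were found at 8.6% of the 4047 loci with a mean of 1 to 5 FPKM, 4.55% of those at 5 to 20, 1.96% of those at 20 to 100 and 0.84% of the 119 loci at 500 or more. The most abundant loci also sat lower as a group, with a median of -0.26 at 500 FPKM or more. Relative depth, read from the steps between the lowest values, was 1.02 times that of the control, while absolute depth is unknown.

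**Figure D1:**
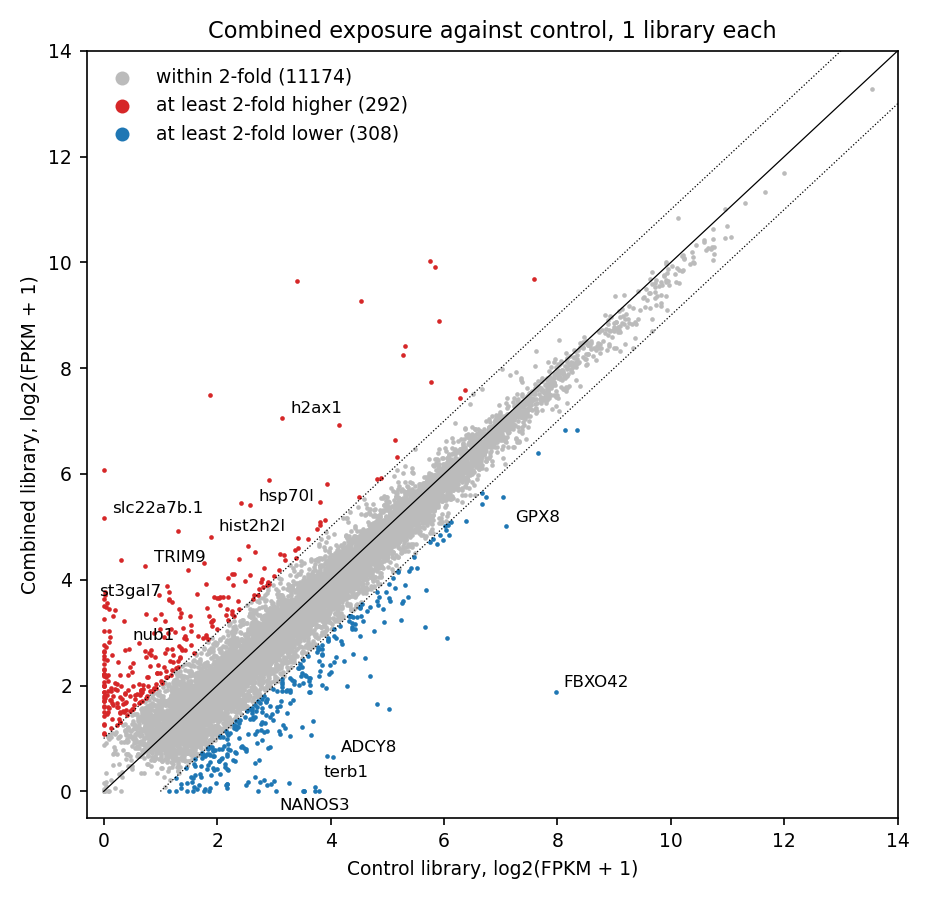
Each point is a locus, with log2(FPKM + 1) in the control on the horizontal axis and in the combined library on the vertical axis. The solid line marks equality and the dotted lines a 2-fold difference, with 292 loci in red above and 308 in blue below; several of the high red points without a label are loci with no gene name.

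Among the most abundant loci that were higher in the combined library, most have no gene name. Over all measured loci, 8090 of 11774 carry a symbol of their own, and the share among abundant loci was not counted. Of 14 loci at least 2-fold higher and at 100 FPKM or more, 2 carry a symbol of their own, h2ax1 and MT-ND6, and 12 carry a clone name or no symbol. In 9 of these 12 the combined library was the highest of the 4, but they were chosen for a high combined value, so the control could not be the highest. The locus zgc:158463 was at 9.60 FPKM in the control, 14.4 with DBP, 17.1 with DiBP and 803 with both. The clone-named locus si:dkeyp-3b12.11 was at 38.9, 9.93, 8.17 and 342. Among the 12 are also si:dkeyp-3b12.10, at 37.8, 9.32, 11.0 and 302, and a merged locus of si:dkeyp-3b12.8 and si:dkeyp-3b12.9, at 59.4, 14.6, 14.4 and 477. These are named for the same clone, so the 12 may not be independent of each other. Outside the Ensembl rows, 5 rows of merged loci without a name were picked for lying at least 1000 FPKM above every other library in the combined library. An excess there was thus set by the choice, and no such pick was made for the other libraries. The numbers of the 5 rows follow closely on each other, so they too may not be independent. These rows added up to 2841 FPKM in the control, 701 with DBP, 623 with DiBP and 33977 with both. That is 6.63% of all FPKM in the combined library and 0.532% in the control. The 3 loci annotated as 5.8S ribosomal RNA summed to 132, 17.0, 40.1 and 97.3 FPKM. FPKM values are relative to the size of the library, so a gain of the 5 unnamed rows can leave less for other rows. Their part in the lower values elsewhere was not tested. The sum over all rows was not fixed, at 534379 FPKM in the control, 572398 with DBP, 598063 with DiBP and 512635 with both. Ensembl rows added up to 505561 FPKM in the control and 452737 in the combined library. Scaling to equal totals moved the differences of abundant loci up by 0.06, and by 0.11 where the 50 most abundant rows were left out of the total, and those of low loci by less, since 1 is added to each value.

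The named gene with the largest excess was slc22a7b.1, of the organic anion transporter family. It was listed at 0 in the control, at 0.181 FPKM with DBP, at 0 with DiBP and at 35.2 with both. The sialyltransferase gene st3gal7 had the same pattern, at 0, 0.0428, 0 and 10.3. For both genes the combined library alone held more than a trace. nub1, known in mammals to lower the ubiquitin-like protein NEDD8, was at 0.283 FPKM in the control, 0.222 with DBP, 0.372 with DiBP and 8.26 with both. traf3ip2l is named for the adaptor of the interleukin-17 receptor in mammals and was at 1.18, 1.70, 0.822 and 13.8. In these 4 genes the single exposures stayed near the control.

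Other high genes were high in at least 1 of the single exposures too. h2ax1, a histone H2A of the H2AX kind that marks broken DNA when phosphorylated, was at 7.81 FPKM in the control, 169 with DBP, 19.6 with DiBP and 133 with both. The replication histone gene hist2h2l followed the same order at 2.69, 27.3, 4.86 and 26.9, and FKBP6, needed in the mouse for piRNA silencing and male meiosis, was at 1.81, 20.3, 4.78 and 17.3. mpzl1l, named for a membrane protein of the myelin zero family, was at 1.22, 10.1, 0.936 and 11.5. In these 4 genes the combined library resembled the DBP library rather than the DiBP library. The ubiquitin ligase gene TRIM9 was at 0.665, 8.73, 8.69 and 18.1 FPKM, ccdc15 at 0.0242, 10.2, 6.95 and 10.3, and c6ast3, an astacin-type protease, at 0.0785, 4.16, 5.96 and 6.52. Here all 3 exposed libraries lay above the control. HES1, a repressor induced by Notch, was at 1.30, 2.05, 4.99 and 11.0 FPKM, and GPNMB, a membrane glycoprotein of melanosomes and macrophages in mammals, at 1.01, 2.28, 3.81 and 9.25. Both had their highest value in the combined library.

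The named gene furthest below the control was FBXO42, which in human cells directs p53 to degradation. It was at 249 FPKM in the control, 10.8 with DBP, 66.7 with DiBP and 2.70 with both, a log2 difference of -6.08. All 3 exposed libraries lay below the control and the combined library was the lowest. The peroxidase gene GPX8 of the endoplasmic reticulum was likewise highest in the control, at 136, 59.0, 37.7 and 31.2 (log2 difference -2.09). b4galnt1a, which makes complex gangliosides, was at 5.71, 0.889, 1.17 and 0.517, and MIA, a secreted cartilage protein in mammals, at 7.02, 0.359, 0.0270 and 0.146.

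A further set was low only where DiBP was given. NANOS3, a translational repressor that zebrafish need to keep their germ cells, was at 10.6 FPKM in the control and 25.9 with DBP, and was listed at 0 with DiBP and with both. ADCY8, an adenylyl cyclase that makes cAMP, was at 15.5, 21.9, 0.594 and 0.578 FPKM. GBA3, a cytosolic beta-glucosidase, was at 7.21, 17.6, 0.0680 and 0, and the transcription factor gene BHLHE23 at 3.52, 4.50, 0.0301 and 0.0498. In these 4 genes the control and the DBP library were high while the DiBP and combined libraries were near 0.

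**Figure D2:**
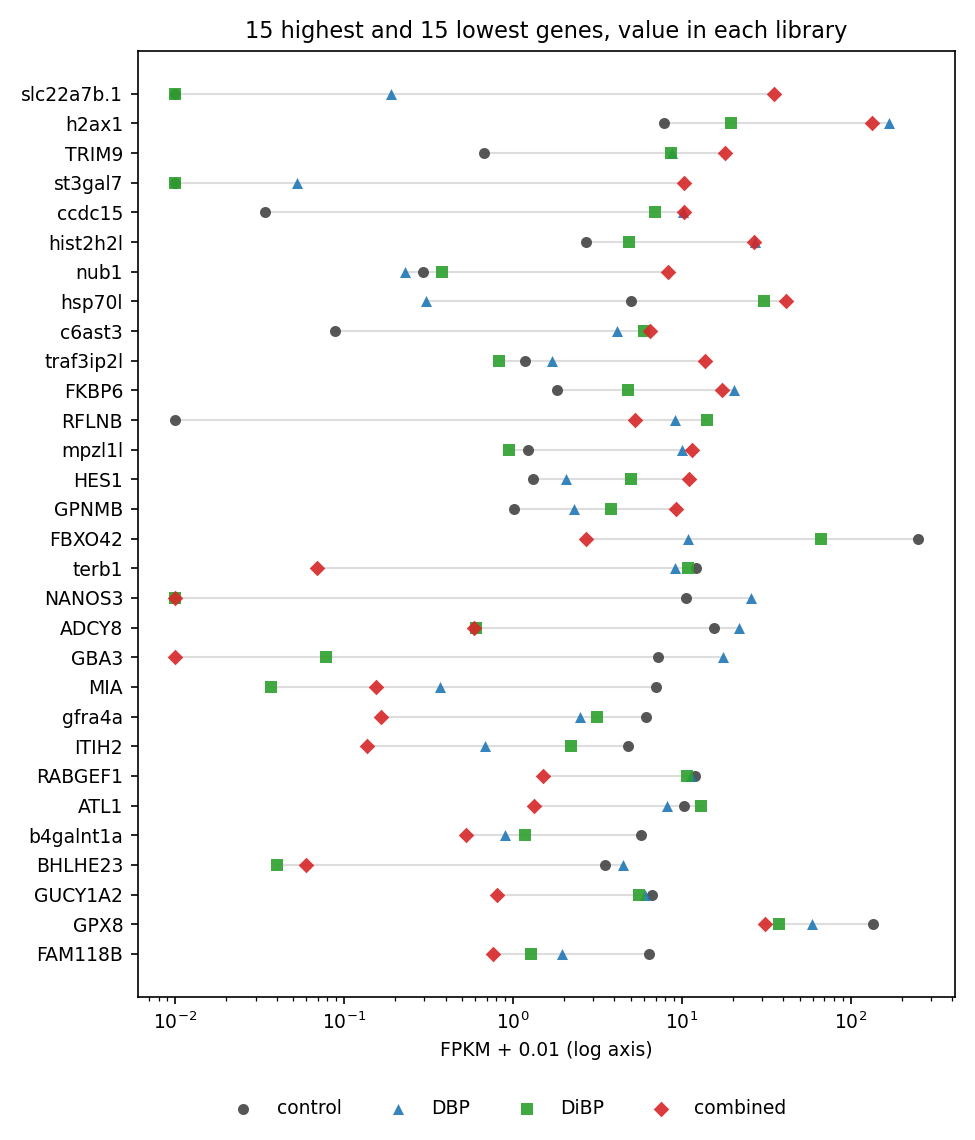
Values of the 15 highest and the 15 lowest named genes in each library, as FPKM + 0.01 on a log axis, 1 row per gene and 1 symbol per library. For slc22a7b.1, st3gal7 and nub1 the combined library stands apart from the other 3, while NANOS3, ADCY8, GBA3 and BHLHE23 have the DiBP and combined libraries near 0 and the control and DBP libraries together.

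Few loci set the combined library apart from every other library. It was at least 2-fold above each of the other 3 at 34 loci, or 0.289% of those measured, and at least 2-fold below each at 50, or 0.425%. The same count gave 60 above and 81 below for the control, 71 and 35 for DBP, and 92 and 109 for DiBP. The combined library thus had the fewest loci above, and a number below that lay between those of the DBP and control libraries. Beside the genes named earlier, the combined library alone was high at rasef2, a small GTPase gene (3.93, 5.81, 6.59 and 16.2 FPKM), at tmem45a (1.74, 0.673, 1.73 and 6.38) and at IQGAP1, a scaffold of the actin cortex (3.46, 3.03, 1.71 and 9.08).

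The combined library alone was low at genes of several roles. terb1, which tethers telomeres to the nuclear envelope in meiosis in the mouse, was at 12.2 FPKM in the control, 9.10 with DBP, 10.8 with DiBP and 0.0591 with both. The other 3 libraries lay close together there, and the combined library was near 0. RABGEF1, which activates the endosomal GTPase RAB5, was at 11.9, 11.4, 10.8 and 1.51, and ATL1, which shapes the endoplasmic reticulum, at 10.3, 8.18, 13 and 1.32. GUCY1A2, a subunit of the nitric oxide receptor, was at 6.67, 6.04, 5.56 and 0.791 FPKM. ISCA1, which helps build iron-sulphur clusters in mitochondria, was at 13.5, 20.9, 17.5 and 3.00, and the combined library was again the lowest. ISCU, the scaffold on which those clusters form, differed by less and was at 16.7, 15.9, 20.3 and 8.77.

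**Figure D3:**
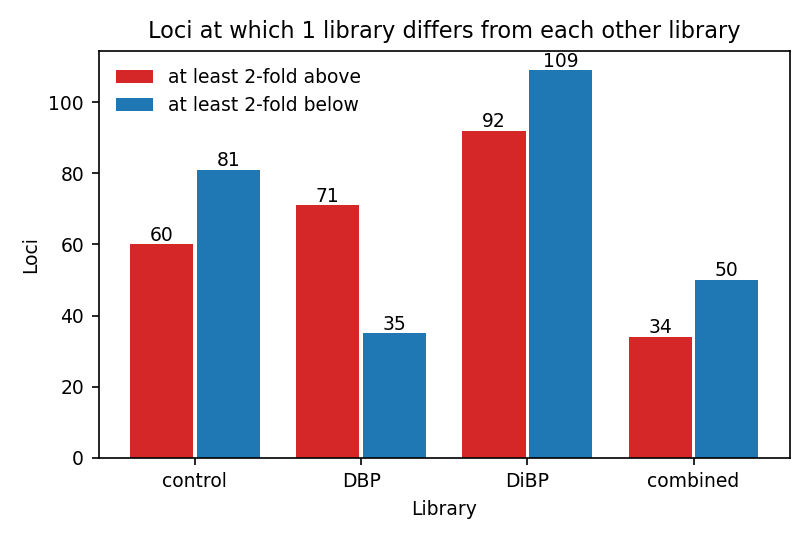
Number of loci at which a library was at least 2-fold above (red) or below (blue) each of the other 3 libraries, for each of the 4 libraries. The combined library has 34 loci above and 50 below, the fewest above, against 92 and 109 for the DiBP library.

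The lists of the egg coat, of the oocyte and germ plasm and of maternal regulators lay somewhat below the control. Of 15 measured egg-coat loci, which encode zona pellucida proteins, 14 were below the control, against 61.8% of all loci, and 12 had their lowest value of the 4 in the combined library, against 28.6%. Their median log2 difference was -0.40, against -0.09 over all loci. Many egg-coat loci are abundant, and the median was -0.14 over all loci at 100 to 500 FPKM and -0.26 at 500 or more. Both bands include egg-coat loci. Of the egg-coat loci 1 was at least 1.5-fold lower and 0 higher. That locus was zpd, at 35.8 FPKM in the control, 28 with DBP, 17.9 with DiBP and 17.4 with both. zpax4 was at 963, 684, 480 and 658, and zp3c at 407, 413, 451 and 284. The egg-coat loci summed to 9265 FPKM in the control, 9076 with DBP, 9211 with DiBP and 7117 with both. Scaled to the total without the 50 most abundant rows, the combined library was the lowest at 5 of the 15 (16.2% of all loci) and the highest at 2 (29.0% of all loci), and the median was -0.28. The order among the libraries thus moved with the scaling, while the median stayed below 0 under each of the 3 scalings.

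The oocyte and germ plasm list had 29 measured loci with a median of -0.23, with 4 at least 1.5-fold lower and 0 higher, and 24 below the control (82.8%, against 61.8% of all loci). With totals that leave out the 50 most abundant rows, 2 were lower and 0 higher. Some members, such as ZAR1 and h1m, are abundant, and all loci had a median of -0.14 at 100 to 500 FPKM and -0.26 at 500 or more. Beside NANOS3, the lower loci were DAZL, a germ-cell translation factor (25.2, 31.3, 23.5 and 13.2 FPKM), foxr1 (23.6, 25.9, 23.7 and 15.1) and a locus of RBPMS2, which binds RNA of the Balbiani body in zebrafish (28.1, 19.5, 18.1 and 18.2). buc, which builds the Balbiani body, was at 159, 168, 220 and 112. The linker histone gene h1m was at 531, 1453, 1889 and 427. For h1m and buc the combined library lay below the control and the single exposures above it. Of 20 maternal regulators of the embryo, 4 were lower (20%, against 8.93% of all loci) and 0 higher (median -0.16). Among the lower 4 were sox19b, a maternal activator of the embryonic genome (61.7, 38.5, 42.2 and 32.9 FPKM), sybu, a maternal factor that sets the dorsal side of the embryo (50.2, 60.8, 52.2 and 27.6), and TRIM36 (44.6, 54.7, 31.4 and 24.6).

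The meiosis list went both ways, with 1 of 14 loci higher, 2 lower and a median of -0.14. SYCP1, of the synaptonemal complex, was at 6.31 FPKM in the control, 6.55 with DBP, 11.1 with DiBP and 2.21 with both. stag3, a subunit of meiotic cohesin, was at 2.56, 5.08, 3.11 and 6.33. The combined library had the lowest SYCP1 and the highest stag3. Of 16 piRNA pathway loci, FKBP6 was the only one past 1.5-fold, and PIWIL2, a PIWI protein, was at 7.85, 11.0, 5.41 and 11.2 (median of the list -0.05, a sign that turns with the scaling). In the list of oocyte maturation and cell cycle, 1 of 33 was higher and 3 lower (median -0.16). The higher member was CCNA1, a germ-line cyclin, at 129, 236, 328 and 253 FPKM. Among the lower ones were ADCY8 and cdc25d (2.32, 0.914, 0.274 and 0.641). GMNN, which blocks re-replication, was at 197, 384, 485 and 321 and was the single member past 1.5-fold of 36 DNA replication loci. For CCNA1, cdc25d and GMNN all 3 exposed libraries lay on the same side of the control. APEX1, an endonuclease of base excision repair, stood at 37.6, 15.9, 12.4 and 11.2. In the DNA repair list (median 0.02) 1 of 39 was higher and 3 were lower, a split that turned to 3 higher and 2 lower with equal totals and 4 and 2 without the 50 most abundant rows.

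Somatic and steroid genes differed little. 4 granulosa loci were measured, all above the control, with 1 past 1.5-fold: the microRNA gene mir202 was at 1.58 FPKM in the control, 25.8 with DBP, 13 with DiBP and 3.26 with both. SERPINE2, a protease inhibitor, was at 14.7, 26.8, 26.4 and 20.5. CYP19A1 was at 0.677, 3.65, 4.18 and 0.837, and FOXL2 at 1.16, 1.43, 1.19 and 1.24, so both differed little between the combined library and the control. Summed over the granulosa loci in the tables that carry 1 symbol, the levels were 20.8, 63.6, 49.5 and 28.6. By this sum the combined library lay between the control and the single exposures, but SERPINE2 made up most of it in the control and combined libraries. Among 6 theca and stroma loci 1 was lower and 0 higher, and CYP17A1, which makes androgens, was at 10.1, 13.4, 17.0 and 13.7. Of 25 steroid synthesis loci 2 were higher (8%) and 3 lower (12%), near the 6.01% and 8.93% of all loci (median -0.10). HSD17B4, which inactivates oestradiol and shortens fatty acids in peroxisomes, was at 10.3, 7.49, 5.83 and 3.71 FPKM. The sulphatase gene STS was at 0.589, 1.86, 0.943 and 1.80, and the sulphotransferase gene sult2st2 at 0.416, 3.25, 2.33 and 1.93. HSD17B4 was lowest in the combined library, while STS and sult2st2 were above the control in every exposed library. Of 25 hormone receptor loci 0 were past 1.5-fold in either direction, or 2 higher with totals that leave out the 50 most abundant rows. The nearest to it were the oestrogen receptor gene ESR2, at 1.51, 4.50, 1.16 and 2.66, and ESRRA, at 5.51, 3.04, 1.80 and 3.49.

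Growth factor and patterning genes were mixed. In the TGF-beta and BMP list 2 of 25 were higher (8%) and 4 lower (16%), against 6.01% and 8.93% of all loci. A locus of ACVR1B, an activin receptor, was at 3.02 FPKM in the control, 11.3 with DBP, 9.28 with DiBP and 11.6 with both. The ligand gene TGFB2 was at 3.09, 2.58, 3.01 and 0.735, the BMP target ID3 at 21.1, 13, 14.3 and 8.89, and the ligand gene BMP6 at 0.420, 0.976, 1.06 and 1.73. TGFB2 was low in the combined library alone. In the Wnt and Notch list 3 of 24 were higher (12.5%) and 0 lower, with a median of 0.15. her2, a hairy-related repressor, was at 0.358, 38.4, 72.5 and 5.49, a locus of GSK3A at 13.1, 7.22, 32.8 and 33.2, and AXIN2, a feedback inhibitor and target of Wnt, at 3.88, 5.46, 4.82 and 6.72.

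Genes of acute stress were split. The heat-inducible chaperone gene hsp70l was at 5.00 FPKM in the control, 0.295 with DBP, 30.6 with DiBP and 41.4 with both, and hsp70.3, of the same family, at 12.9, 1.82, 28.2 and 23.8. These genes were high in the DiBP and combined libraries and below the control in the DBP library. Other members of the heat shock list were lower, with hspa1b at 5.12, 2.26, 1.63 and 1.89, HSPB1, a small heat shock protein, at 2.75, 3.36, 2.87 and 1.03, and hsf1, the factor that induces heat shock genes, at 7.57, 2.17, 2.51 and 4.04. Of the 42 measured, 4 lay at least 1.5-fold above the control and 5 below, with a median of -0.17. Of 31 immediate-early loci, whose transcripts appear within minutes of a stimulus such as handling, 8 were higher and 2 lower (median 0.05). Over all loci 6.01% were higher by that much. JUN was at 4.2, 1.13, 14.9 and 9.85, a locus of JUNB at 13.1, 8.56, 40.8 and 32.0, CEBPB at 2.76, 5.67, 13.7 and 7.75, and ier2b at 0.722, 2.82, 6.08 and 3.00. In these 4 the DiBP library was the highest and the combined library the next, but at IER5L, at 0.259, 2.33, 1.13 and 1.88, the DBP library was the highest. NR4A1 went the other way, at 12.4, 6.32, 1.33 and 6.70. The sources used here give neither the time to freezing nor the order of dissection, and their part in these genes was not tested.

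Several antioxidant and glutathione genes were below the control. Of 42 measured loci, 9 were at least 1.5-fold lower and 0 higher, 33 lay below the control (78.6%, against 61.8% of all loci), and the median was -0.27. With totals that leave out the 50 most abundant rows, 6 were lower and 3 higher. The combined library had the lowest of the 4 values at 20 (47.6%, against 28.6% of all loci) and the highest at 0 (15.1% of all loci). Under that scaling it had the lowest at 13 (31.0%, against 16.2% of all loci) and the highest at 5. Beside GPX8, the lower loci included KEAP1, the sensor that holds the antioxidant factor NRF2 in check (17.4, 14.2, 8.21 and 8.65 FPKM), and mgst3b, a microsomal glutathione transferase (61.0, 53.9, 50.1 and 33.5). gsto2, another glutathione transferase, was at 174, 135, 112 and 99.7, and GPX4, which reduces lipid peroxides, at 286, 238, 199 and 162. In these 4 genes all 3 exposed libraries lay below the control. The whole list did not follow this with DBP, where its median against the control was 0.07, while it was -0.15 with DiBP. gpx1b, a cytosolic glutathione peroxidase, was at 14.1, 16.9, 36.5 and 8.96, so here the single exposures lay above the control. In the xenobiotic list 3 of 25 were higher and 4 lower (median -0.24), or 4 and 3 with totals that leave out the 50 most abundant rows, with the sulphotransferase gene sult2st3 at 3.10, 0.764, 1.24 and 0.490 and cyp2y3, a cytochrome P450, at 2.04, 1.30, 0.202 and 0.658. Of 47 loci of ER stress and secretion 1 was higher and 2 lower (median -0.18). Of 39 loci of apoptosis and the p53 response 1 was higher, diablob (18.6, 57.5, 41.0 and 34.7), and 4 were lower, among them GADD45A, a p53 target (6.10, 17.2, 3.38 and 2.49).

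**Figure D4:**
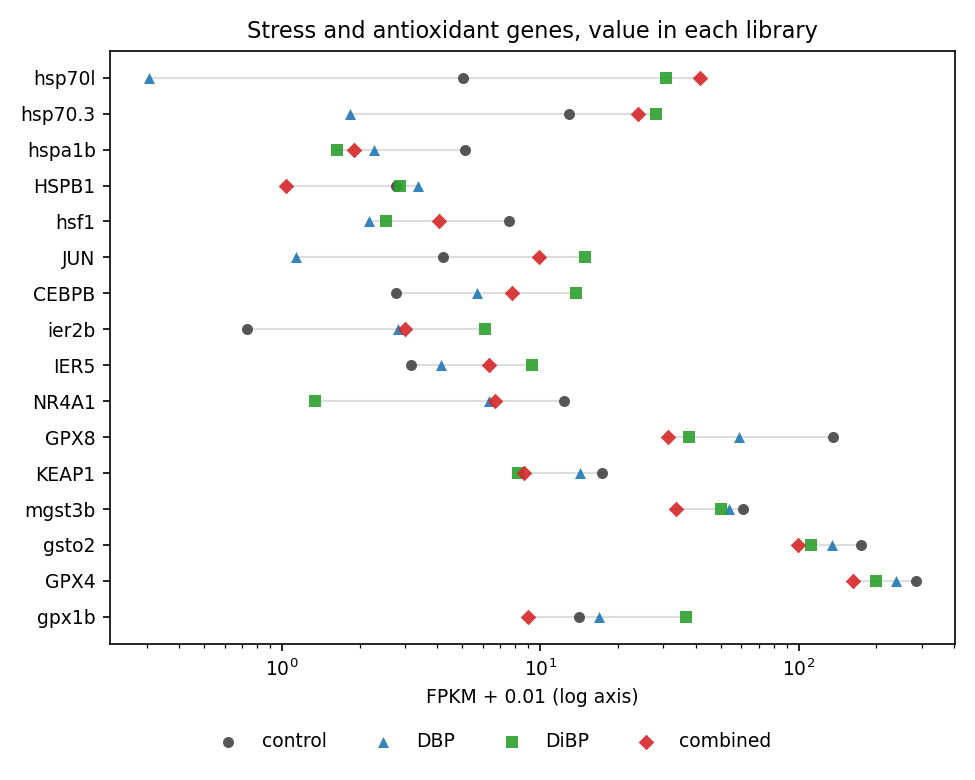
FPKM + 0.01 on a log axis for heat shock, immediate-early and antioxidant genes in each of the 4 libraries. hsp70l, hsp70.3 and JUN have the DiBP and combined libraries above the control and the DBP library below it, while GPX8, KEAP1, mgst3b, gsto2 and GPX4 have all 3 exposed libraries below the control.

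Several markers of epithelium were above the control. Of 14 measured epithelium and keratin loci 5 lay at least 1.5-fold above the control (35.7%, against 6.01% of all loci) and 0 below, with a median of 0.31. By any amount, 9 lay above the control and 5 below it. The combined library was the lowest of the 4 at 4 of them (28.6%, as over all loci) and the highest at 1. The plakin gene PPL was at 0.182 FPKM in the control, 1.24 with DBP, 3.34 with DiBP and 2.76 with both, the keratin gene krt5 at 0.50, 1.94, 1.37 and 2.57, and cldn7b, a tight junction claudin, at 11.1, 15.1, 31.3 and 26.3. epcam, an epithelial adhesion gene, was at 86.8, 472, 1147 and 160. All 3 exposed libraries lay above the control for these 4 genes, and the combined library had the smallest excess at epcam. The abundant claudin gene cldnd followed epcam's order at 1111, 3301, 3699 and 1824. The list summed to 122, 549, 1229 and 225 FPKM, highest with DiBP, but epcam made up most of this sum in each library. The part of epithelial or follicle-layer content in the other differences was not tested.

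Transcripts of liver genes were low everywhere and most often highest in the combined library. RBP4, a retinol carrier, was the only liver locus to pass the filter. It was lowest in the combined library, at 1.38 FPKM in the control, 1.73 with DBP, 1.38 with DiBP and 1.19 with both. Of 25 liver loci with any value above 0, the combined library was the highest at 16 (64%, against 20.3% of all loci with any value), and the number was 16 under each of the 3 other scalings. Without the merged loci, which carry several symbols, their sum was 3.07 FPKM in the control, 3.49 with DBP, 3.79 with DiBP and 7.18 with both. The yolk precursor gene vtg2 was listed at 0, 0.0163, 0 and 1.01, and the lipoprotein gene apoa1b at 0, 0, 0.0283 and 1.12. A merged locus that holds vtg1, vtg4, vtg5, vtg6 and vtg7 was at 0.000727, 0.000979, 0.0765 and 1.42. vtg3 was at 0.0841, 0.0887, 0.0435 and 0.362, and fabp10a, the liver fatty acid carrier, at 0.0907, 0, 0.199 and 0.484. Other liver loci went the other way. FGB was highest with DiBP, at 0.167, 0.406, 0.549 and 0.383, and c3a.1 in the control, at 0.375, 0.222, 0.291 and 0.156. Apart from RBP4, all of these lie below the filter on the mean, and traces of another tissue cannot be told apart from transcription in the ovary. Leukocyte loci were few, with 4 of 6 at least 1.5-fold higher (66.7%, against 6.01% of all loci), 0 lower and a median of 0.75. The higher 4 were lyz, a merged locus of CORO1A and PAQR4, a locus of MFAP4, and a merged one of MFAP4 and its neighbours. The last was the furthest, at 0.964, 38.2, 23.1 and 12.1 FPKM. lyz, a lysozyme gene, was at 0.922, 0.949, 1.09 and 2.64, the pan-leukocyte gene ptprc at 0.0240, 0.481, 0.296 and 0.0342, and cd74a, which serves antigen presentation, at 1.04, 4.39, 2.74 and 0.485. Of these, ptprc lies below the filter. The leukocyte loci outside merged ones thus went several ways. Relative to the median of all loci, the list turned sign without merged loci. Of 7 smooth muscle and vessel loci 0 passed 1.5-fold, and the list summed to 105, 124, 111 and 81.0 FPKM. Most of that sum was tpm1, a tropomyosin gene, at 83.8, 62.5, 78.9 and 59.8. By any amount, 4 of the 7 lay above the control and 3 below (median 0.05). TAGLN was at 5.47, 33.5, 10.1 and 6.79, and CNN2 at 0.320, 6.96, 8.31 and 0.946. The globin gene hbae5 was at 2.26, 1.55, 1.28 and 0.250.

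Few genes of lipid metabolism differed by much. Of 53 PPAR targets and fatty acid oxidation loci 2 lay at least 1.5-fold above the control and 4 below (median -0.13). fabp4a, a fatty acid carrier and PPAR gamma target in mammals, was at 1.55 FPKM in the control, 25.3 with DBP, 5.65 with DiBP and 8.79 with both, and hadhaa, of mitochondrial beta-oxidation, at 18.4, 12.9, 19.0 and 34.8. pparg itself was at 2.99, 2.99, 2.16 and 2.83. fabp4a was above the control in every exposed library, hadhaa mainly in the combined library, and pparg differed little. Of 25 cholesterol synthesis loci 0 were higher and 2 lower. They were FDFT1, a squalene synthase (10.4, 6.94, 3.26 and 4.59), and MVD (32.9, 10.7, 29.9 and 20.5). DGAT1, which makes triglyceride, was at 3.50, 1.79, 3.28 and 1.16. LDHA, which makes lactate, was at 8.73, 18.8, 22.9 and 18.3 and was among 3 of 26 loci of glycolysis that were higher, with 0 lower. Of the 10 mitochondrially encoded loci 3 lay at least 1.5-fold above the control and 2 below, or 50% against 14.9% of all loci, and 4 and 0 with totals that leave out the 50 most abundant rows. MT-ND6, a subunit of complex I, was at 77.1, 340, 196 and 172, and the merged locus of MT-ATP6, MT-CO3 and mt-atp8 at 912, 1114, 759 and 579. Nuclear genes of complex I had 1 of 46 lower and 0 higher (median -0.12), and of 27 TCA cycle loci 0 passed 1.5-fold. MDH1, the cytosolic malate dehydrogenase, lies in no rule for named genes and was picked after its values were seen. It was at 82.5, 77, 90.4 and 33.8, low in the combined library alone.

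Among loci averaging 200 FPKM or more, the lowest named gene was lectin, at 131 FPKM in the control, 362 with DBP, 472 with DiBP and 46.3 with both (log2 difference -1.48). The calcium-binding protein gene S100A1 was at 641, 935, 1441 and 333 (-0.95). In both genes the single exposures lay above the control and the combined library below it. tubb4b, a beta-tubulin, was at 1715, 927, 595 and 1057 and gstp1.2, a glutathione transferase, at 659, 445, 359 and 379, where all 3 exposed libraries were lower. The highest were MT-ND1, at 89.8, 584, 310 and 180, and CCNA1, followed by epcam and cldnd. At these 4 genes the 3 exposed libraries lay above the control.

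Ribosomal protein genes were slightly lower and genes of very long proteins slightly higher. Of 48 large-subunit loci 44 lay below the control (61.8% of all loci did), with a median of -0.25, 3 at least 1.5-fold lower and 0 higher. The combined library was the lowest of the 4 at 41 of them (85.4%, against 28.6% of all loci), and at 32 (66.7%, against 16.2%) with totals that leave out the 50 most abundant rows. RPL12 was at 817 FPKM in the control, 631 with DBP, 763 with DiBP and 484 with both, and RPL22 at 581, 508, 680 and 352. Against the control, the large-subunit list had a median of 0.22 with DBP and 0.34 with DiBP. RPL12, and RPL22 with DBP, thus went against the direction of the list in the single exposures. Of 44 small-subunit loci 1 was lower and 0 higher (median -0.20, against 0.29 with DBP and 0.42 with DiBP). These loci are abundant, and the median of all loci was -0.14 at 100 to 500 FPKM and -0.26 at 500 or more. Both bands include ribosomal protein loci, so these medians are no independent yardstick. Of 62 loci that encode very long proteins, a list taken up after the data were seen, 7 were at least 1.5-fold higher and 1 lower, with a median of 0.34. The combined library was the highest of the 4 at 39 of them (62.9%, against 15.1% of all loci). With totals that leave out the 50 most abundant rows, 12 were higher and 1 lower, and the combined library was the highest at 51 (82.3%, against 29.0% of all loci). Since the list was taken up after the data were seen, these shares only describe the size of its excess. RYR2, a calcium release channel, was at 0.952, 0.837, 2.42 and 4.25, and pcnt, a centrosome scaffold, at 1.43, 1.83, 2.58 and 4.01. The sources used here give no RNA integrity values, and the part of transcript length in these differences was not tested.

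**Figure D5:**
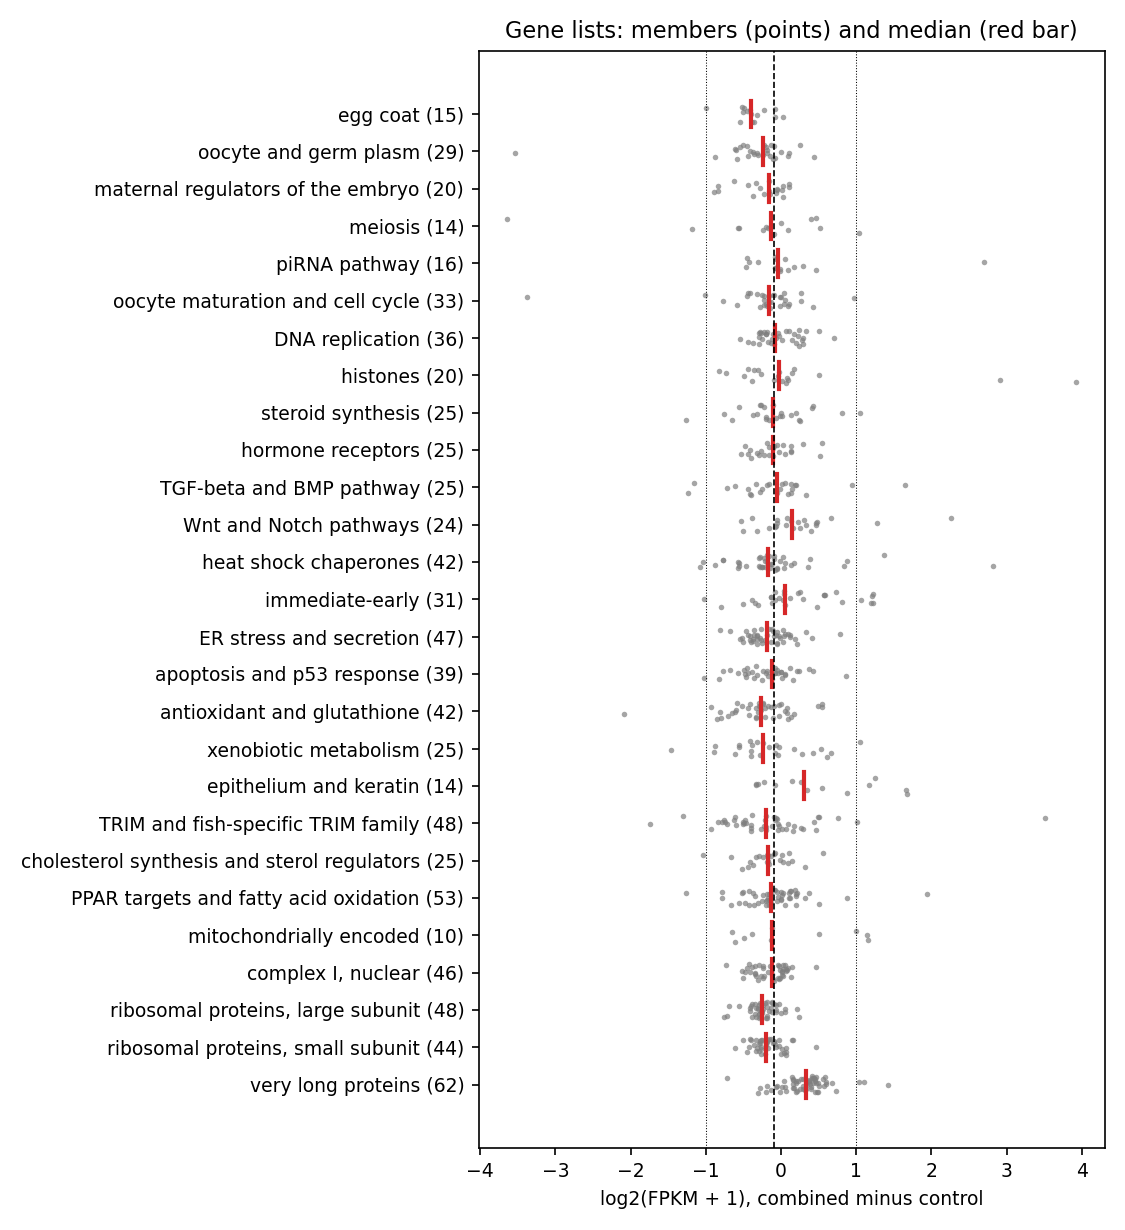
Log2 difference of combined minus control for the measured members of 27 gene lists, with the number of members in brackets, points for members and a red bar for the median. The very long protein list was taken up after the data were seen. The dashed line marks the median of all loci (-0.09) and the dotted lines 2-fold; the egg coat (-0.40), antioxidant (-0.27) and large-subunit ribosomal (-0.25) bars lie to its left, and the epithelium (0.31) and very long protein (0.34) bars to its right.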

How the data were processed

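The authors deposited 1 table of FPKM values per library. The unit was inferred from the values, since it is named nowhere. Per the labels' protocols, ovary RNA went into NEBNext Ultra libraries and paired-end sequencing on a HiSeq X. HISAT2, HTSeq 0.6.1 and the build GRCz10 come from the submitters' processing notes, and use of strand is not given in the sources used here, so genes that overlap may share fragments. Per the file headers, columns in the DiBP and combined tables are named unlike their samples, and the recorded sample of each file was used. A design written for counts was replaced by its alternative for normalized values.

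Symbols matched 26996 of 35066 Ensembl rows. Rows with equal values in all 4 libraries were joined (595 loci hold 1424 rows). Differences are of log2(FPKM + 1) over loci averaging at least 1 FPKM, without further scaling, set against 2-fold and 1.5-fold. With 1 library per group no test was run. The members and the gene lists were chosen with earlier results of these data known. Counts in lists include loci that share reads with other genes. Sums of FPKM over a list leave out loci that carry several symbols. Named genes are the 15 highest and 15 lowest, up to 4 per list, the 8 furthest above and below all other libraries, and the 8 highest and lowest at 200 FPKM or more, among symbols carried by 1 row. In the lists, symbols shared by several rows also count, and further members of lists are printed as examples. Relative depth rests on 393 to 430 rows below 0.05 FPKM. Alternatives were pseudocounts of 0.1 and 5, filters at 0.1 and 5 FPKM, 3 scalings, uncollapsed rows and merged-locus rows. The code was tested on simulated data. Python 3.11.15, numpy 2.4.6, pandas 2.3.3 and matplotlib 3.10.9 were used.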

Additional observations from a re-analysis of the deposited data

Results flagged for a closer look

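High values in the combined library lay in rows outside the Ensembl loci on which the 2-fold counts and gene lists rest. The 5 rows of merged loci without a gene name were picked for lying at least 1000 FPKM above every other library there. An excess was thus set by the choice, and only its size is described. They summed to 33977 FPKM in the combined library, against 2841 in the control, 701 with DBP and 623 with DiBP. The most abundant of them was at 13840 FPKM against 808, 195 and 153. No annotation used here says what they encode.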

How the results depend on the processing

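The 292 loci at least 2-fold higher and 308 lower, and the 34 and 50 at which the combined library stood 2-fold above or below each other library, move with the settings. A pseudocount of 0.1 gave 514 and 576, with 52 and 152 standing alone, and a pseudocount of 5 gave 88 and 81, with 20 and 12. A filter at 5 FPKM gave 115 and 137, with 14 and 28, and a filter at 0.1 FPKM gave 52 alone above. With merged-locus rows, 482 were higher, and 72 and 84 stood alone. The share higher among the 2-fold differences was 48.7%, and 50.7%, 53.6% and 57.6% under the 3 scalings. Relative to the median of all loci, 3 lists turned sign: interferon and antiviral (-0.43 at 5 FPKM), red blood cell (0.020 at 0.1 FPKM) and leukocyte (-0.23 without merged loci). The cause was not tested. Of the other counts under an alternative 24 stayed within 1.5 times. No paired analysis was possible because each group has 1 library. The pseudocount understates low genes, and absolute depth is unknown.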

Other observations

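Other gene groups had values not described above, to be read beside the 6.01% of all loci that were at least 1.5-fold higher and the 8.93% lower. Of 48 loci of the TRIM and fish-specific TRIM family, ubiquitin ligases that have multiplied in fish, 3 were at least 1.5-fold higher and 11 lower, with a median of -0.20. ftr67 was at 29.8 FPKM in the control, 56.2 with DBP, 1.92 with DiBP and 8.18 with both, and trim35-24 at 8.23, 0.722, 0.742 and 2.73. Of 48 proteasome loci 3 were lower and 0 higher (median -0.15), with PSMB10, an inducible catalytic subunit, at 40.1, 15.3, 21.1 and 11.7. Of 32 aminoacyl-tRNA synthetase loci 4 were lower and 0 higher (median -0.16), with AARS1 at 54.0, 37.7, 30.0 and 32.1. Of 89 splicing factor loci 4 were higher and 1 lower, with SF3A3 at 6.42, 8.91, 13.1 and 14.5. Among 181 solute carriers 14 were higher (7.73%) and 12 lower (6.63%), near those shares. SLC15A5 was at 3.44, 0.249, 1.06 and 0.0923, and SLC43A2, an amino acid transporter, at 0.432, 0.741, 2.05 and 2.97. Of 129 zinc finger genes 7 were higher and 11 lower, near the same shares, and both this split (10 and 7 with totals that leave out the 50 most abundant rows) and the list's median turn with the scaling. Of 35 loci of chromatin modifiers 2 were higher, both of EP300, a histone acetyltransferase, and 1 lower, the histone demethylase gene KDM2B (6.88, 4.48, 0.904 and 1.56). Of 12 interferon and antiviral loci 2 were higher and 2 lower, with the adaptor gene MYD88 at 1.25, 3.80, 1.68 and 4.48.

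Of 2085 rows of merged loci that share no values with an Ensembl row, 190 were at least 2-fold higher and 140 lower, or 15.8%, with an SD of 1.03. For 12 of the 60 lists the sign of the median turned under at least 1 scaling.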
